A study of Mus musculus with 6 samples.

Results

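The methionine cycle and the cysteine pathway that leaves it were followed here through 10 genes, Mat1a, Mat2a, Gnmt, Bhmt, Bhmt2, Ahcy, Cbs, Cth, Cdo1 and Csad. They were taken by gene symbol from a table of 10940 named genes, and all 10 were found. The RPKM table held 11 transcript rows for them, because Cbs had a pair of RefSeq transcripts, and each gene was represented by the transcript with the highest mean over the 6 libraries. RPKM is the read count scaled by transcript length and by library size, so levels can be set beside each other between genes.

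The libraries were made from messenger RNA of frozen liver of male C57BL/6J mice, an inbred strain, aged 8 weeks. Fasted mice (libraries 1, 3 and 4) went without food for 12 h from 10 pm. Refed mice (libraries 5, 7 and 8) were fasted for 12 h from 10 am and then ate a high-sucrose diet (69% sucrose, 10% fat) for 12 h from 10 pm, and all livers were collected at 10 am. The groups therefore differ both in feeding state and in the time of day at which the fast took place, and no group on ordinary chow is among these libraries. The labels give 1 sample per library without saying that each is a separate mouse, so the p-values speak of the spread among samples that may be technical in part.

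In the methionine cycle, methionine is joined to ATP to form S-adenosylmethionine, the methyl donor of most methylation reactions in the cell. Methyl transfer leaves S-adenosylhomocysteine, which is split to homocysteine. Homocysteine is then either methylated back to methionine or drained through cystathionine to cysteine, which liver oxidises to taurine and sulfate or builds into glutathione. The liver carries out a large part of the body's methionine breakdown, and its hepatocytes are known for an adenosyltransferase isozyme, a glycine methyltransferase and a betaine-dependent remethylation enzyme that few other tissues hold at such levels.

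In a principal component analysis of the 1000 genes with the highest variance, component 1 (81.8%) separated the feeding states. Fasted 1 stood apart from the other fasted libraries on the second component (8.95%), at 16.2 against -7.87 and -8.95. Reads in the genes called by the authors summed to between 26237934 and 33219013 per library. The summed level of 8 defining hepatocyte markers, Alb among them, lay between 59104 and 62808 RPKM in fasted and between 59809 and 61985 RPKM in refed libraries. Alb alone had means of 30665 and 31525 RPKM, so it weighs heavily in these sums. Of the 8, 1 was called lower and none higher. It was Hnf4a, from 220 to 177 RPKM (limma adjusted p = 0.041). Apoa1 went from 11823 to 9038 RPKM without overlap and did not pass (limma adjusted p = 0.051). Of the 12 lymphocyte markers none was among the genes tested, and of 10 Kupffer cell markers none passed the test in either direction. The summed Kupffer level lay between 60.5 and 174 RPKM in fasted and between 102 and 113 RPKM in refed libraries. Of 6 cholangiocyte markers 3 were higher in refed liver, all at low levels, Krt19 going from 0.775 ± 0.0379 to 2.35 ± 0.76 RPKM, Krt7 from 0.366 ± 0.148 to 0.895 ± 0.205 RPKM and Sox9 from 1.74 ± 0.145 to 2.90 ± 0.267 RPKM (SD, n = 3; limma adjusted p of 0.0031, 0.025 and 0.0046). Their list summed to between 25.6 and 34.7 RPKM in fasted and between 28.7 and 37.4 RPKM in refed libraries. Of 10 sinusoidal endothelium markers 1, Oit3, was higher, and their sums did not overlap, at 54.3 to 63.1 RPKM in fasted and 63.7 to 71.4 RPKM in refed libraries. Of 11 stellate cell markers 1, Des, was higher, and the sums overlapped. Beside these counts, 26.4% of all genes tested were called higher and 15.8% lower. The part of these markers in the results below was not tested.

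Transcripts of 5 of the 10 genes were lower in refed than in fasted liver, and none was higher. The 5 were Mat1a, Cth, Ahcy, Cdo1 and Cbs, and they span the formation of S-adenosylmethionine, the hydrolysis of S-adenosylhomocysteine, both steps of transsulfuration and the oxidation of cysteine. The largest falls were those of Mat1a, at 4.34-fold lower, and Cth, at 3.64-fold lower. Gnmt, Bhmt, Bhmt2, Mat2a and Csad did not pass. The test was limma on log2(RPKM + 1) over 10883 genes whose mean reached 0.5 RPKM, with a Benjamini-Hochberg adjusted p of 0.05 as the threshold. All 10 genes were above that filter in both groups. Over all genes tested, 15.8% were called lower and 26.4% higher, 42.2% in either direction, and the median log2 fold change of the 10 genes was -0.47 against 0.10 for all genes. When the library medians were made equal (median centring), the share of calls on the higher side went from 62.6% to 49.2%. Mat1a, Cth, Ahcy, Cdo1 and Cbs were called lower under all 3 other scalings, and Bhmt joined them with median centring and with TMM (trimmed mean of M-values). In the same scalings the share of all genes called lower was 20.7% with median centring, 21.4% with TMM and 21% with quantile normalization. In these 5 genes the groups did not overlap, which held for 55.4% of all genes tested and, with refed below fasted, for 20.6%.

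**Figure D1:**
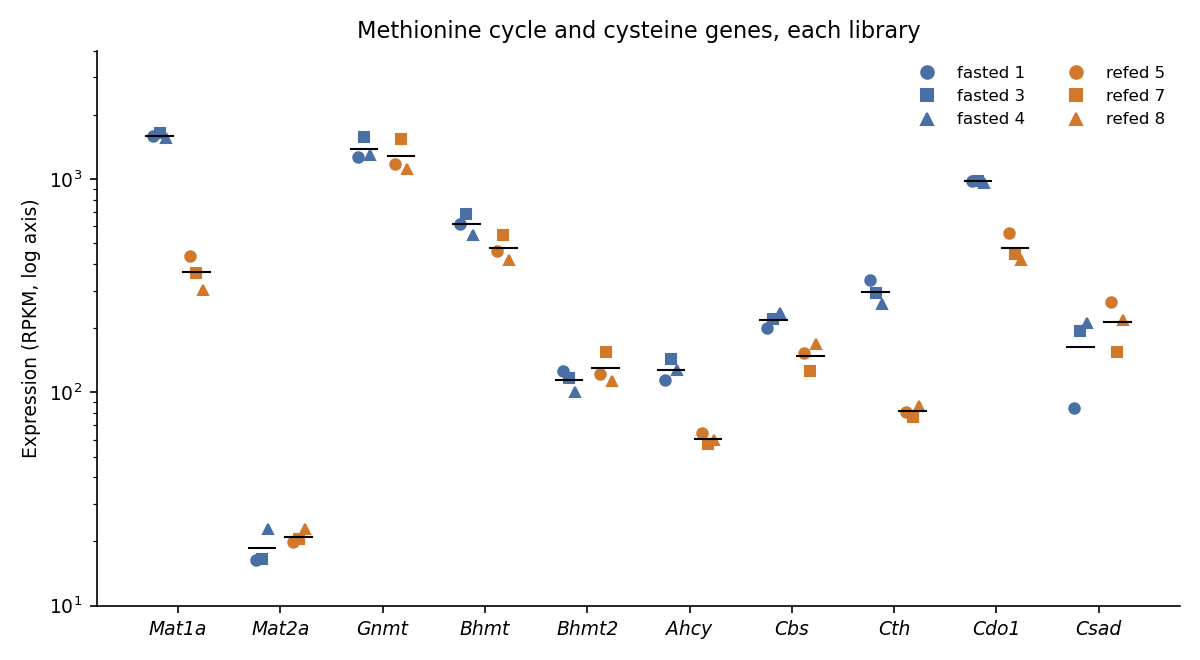
Expression in RPKM (log axis) of the 10 genes in each of the 6 libraries, fasted in blue and refed in orange, with a bar at each group mean. The refed points of Mat1a, Ahcy, Cbs, Cth and Cdo1 lie below all fasted points, those of the other 5 genes overlap with them, and the fasted 1 point of Csad at 84.4 RPKM lies far under the other fasted ones.

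S-adenosylmethionine is made in hepatocytes mainly by the product of Mat1a, the catalytic subunit of the adult liver enzyme, while Mat2a encodes the isozyme of other tissues and of growing liver. Mat1a stood at 1598, 1646 and 1559 RPKM in fasted 1, 3 and 4 and at 438, 363 and 303 RPKM in refed 5, 7 and 8. Every refed library was thus below every fasted one, with a gap far wider than the spread within either group. The difference was -2.13 ± 0.14 on the log2 scale (SE, limma adjusted p = 3.5e-05), and the fall was number 50 in size among the 10883 genes tested. Mat1a was the 38th most abundant transcript of fasted liver by group mean and the 155th of refed liver.

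Mat2a was the lowest of the 10 genes in both states, at 16.3, 16.6 and 22.8 RPKM in the fasted and 19.9, 20.4 and 23.0 RPKM in the refed libraries. The groups overlapped, fasted 4 being nearly as high as refed 8. Refed differed from fasted by 0.19 on the log2 scale, with a 95% interval from -0.12 to 0.50 (limma adjusted p = 0.29). Without fasted 4 it was 0.34 and passed (limma adjusted p = 0.031). The ratio of Mat2a to Mat1a within a library, which no scaling by 1 factor per library can change, was 0.0102, 0.0101 and 0.0146 in fasted and 0.0453, 0.0562 and 0.0758 in refed liver. It was 5.08-fold higher in refed liver by group means, and the groups did not overlap. Its log2 difference was 2.33, and 2.09 with quantile normalization. For this and the 3 other ratios below, the exact two-sided permutation test gave p = 0.1, the smallest value that 3 against 3 libraries allow, and 0.1 after Benjamini-Hochberg adjustment over the 4 ratios.

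Methyl groups leave S-adenosylmethionine through many methyltransferases, and Gnmt, glycine N-methyltransferase, is the abundant liver enzyme that disposes of an excess of it. Gnmt was at 1275, 1580 and 1291 RPKM in fasted and 1176, 1544 and 1114 RPKM in refed libraries. The groups overlapped almost entirely. Its log2 fold change of -0.12 had a 95% interval from -0.47 to 0.23 (limma adjusted p = 0.56), which lies wholly above the estimate for Mat1a. With quantile normalization its sign turned, to 0.038. Gnmt was the highest of the 10 genes in refed liver, where its libraries did not overlap with those of the next gene, Bhmt. In fasted liver its range overlapped with that of Mat1a.

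Ahcy encodes S-adenosylhomocysteine hydrolase, which removes the product of methyl transfer, itself an inhibitor of methyltransferases. It went from 114, 143 and 127 RPKM in the fasted to 64.4, 57.2 and 59.7 RPKM in the refed libraries. The refed libraries were close to each other and all below the lowest fasted one. This was a log2 fold change of -1.07 ± 0.10 (SE, limma adjusted p = 0.0002), 2.12-fold lower by group means. Ahcy is uncertain as a single gene, because 77% of the 50-base stretches of its transcript also occur in transcripts of other genes in the GENCODE M21 annotation. Of these, 1847 occur in Gm4737, a copy annotated as protein-coding, and 846 in the processed pseudogene Gm9826. Neither copy was among the named genes, so no level of theirs could be set beside that of Ahcy.

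The authors' deposited table of called genes gives a second view, as whole reads per gene and a log2 fold change from DESeq. It lists 6 of the 10 genes, the 5 above and Bhmt, while 39.9% of all genes tested were listed there by symbol. Reads per library in the authors' deposited table ranged from 8422 for Cth in refed 8 to 323448 for Mat1a in fasted 3. For Ahcy the authors' deposited table gives a log2 fold change of -1.51, beyond the 95% interval of the RPKM fit, which ran from -1.30 to -0.83. For Mat1a, Bhmt, Cbs, Cth and Cdo1 the authors' deposited values of -2.25, -0.52, -0.62, -2.01 and -1.16 lay within the interval of each gene. Over 2501 listed genes above 5 RPKM in both groups, the authors' deposited value was lower than that of limma by a median of -0.12 on the log2 scale. Ahcy, at -0.45, lay farther from that median than all but 1.8% of these genes.

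**Figure D2:**
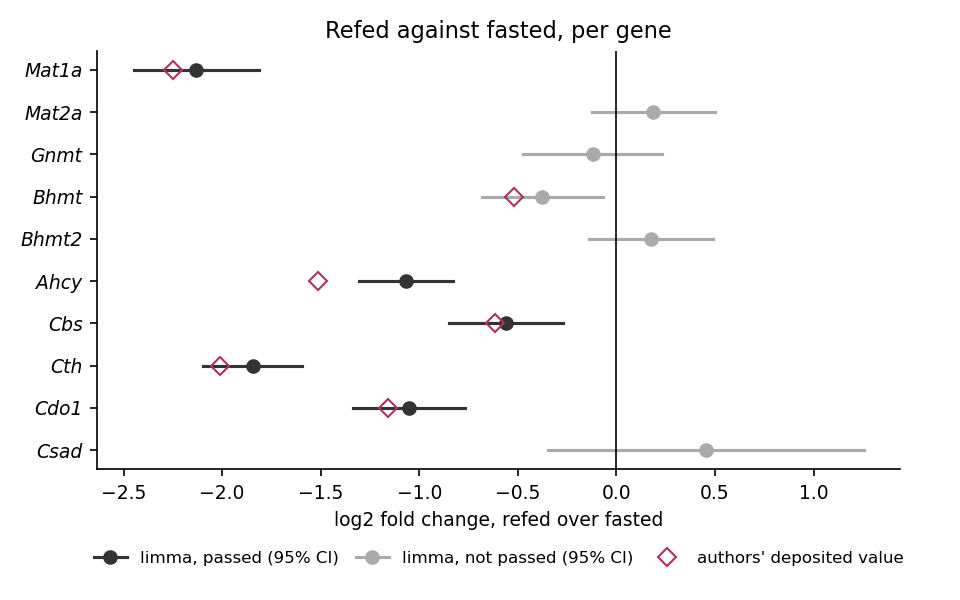
Log2 fold change of refed over fasted liver for the 10 genes, with points and 95% intervals from limma on log2(RPKM + 1), dark where the adjusted p passed 0.05 and grey where it did not, and with diamonds for the authors' deposited values. The diamond of Ahcy at -1.51 lies outside its interval and the other 5 diamonds lie inside.

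The same gap appears when the deposited reads of a gene are divided by its RPKM, after correction for the median of each library. For Ahcy this quotient was 204, 191 and 185 reads per RPKM in the fasted libraries and 155, 155 and 157 in the refed ones. The groups did not overlap. For Cth it was 105, 107 and 104 in fasted and 105, 104 and 104 in refed libraries, and for Cdo1 89.9, 89.8 and 89.7 against 89.1, 89.7 and 92.0. For Cbs the groups did not overlap either, with a smaller gap in the other direction. Its quotient was 144, 143 and 142 in fasted and 149, 150 and 149 in refed libraries. How often the groups lie apart in this quotient over all genes was not counted. The deposited reads of the gene and the RPKM of the RefSeq transcript therefore gave different sizes for the fall of Ahcy, and the same direction.

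**Figure D3:**
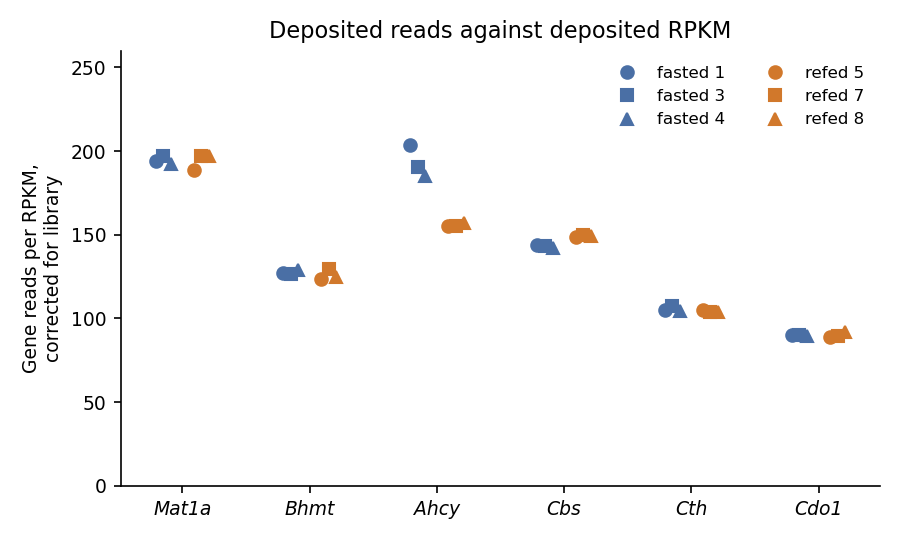
Deposited reads per gene divided by deposited RPKM, corrected for the median of each library, for the 6 genes in the authors' table (fasted blue, refed orange). Ahcy falls from between 185 and 204 to between 155 and 157, while the points of Cth and Cdo1 keep to nearly one height. Cbs rises slightly, from between 142 and 144 to between 149 and 150, also without overlap.

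Homocysteine returns to methionine in liver partly by the betaine-homocysteine methyltransferase of Bhmt, which takes its methyl group from betaine. Bhmt2, a neighbour of Bhmt on chromosome 13, encodes a related enzyme that uses S-methylmethionine as donor. Bhmt was at 616, 690 and 545 RPKM in fasted and 462, 549 and 418 RPKM in refed libraries. Refed 7 was slightly above fasted 4, so the groups overlapped by that pair. On the log2 scale the difference was -0.38 ± 0.13 (SE), with a 95% interval from -0.68 to -0.07, and the limma adjusted p was 0.053, just outside the threshold. Bhmt passed with a filter at a mean of 2 RPKM (limma adjusted p = 0.049), with median centring (0.037), with TMM (0.03), without fasted 4 (0.039) and without refed 7 (0.028), and with quantile normalization the change was -0.17 (0.4). The authors' deposited table lists it at a false discovery rate of 0.0037.

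Bhmt2 was at 126, 116 and 100 RPKM in fasted and 123, 154 and 113 RPKM in refed libraries. The groups overlapped, and the log2 fold change was 0.18 with a 95% interval from -0.14 to 0.49 (limma adjusted p = 0.33). The ratio of Bhmt2 to Bhmt was 0.205, 0.169 and 0.184 in fasted and 0.265, 0.281 and 0.270 in refed liver, 1.46-fold higher with no overlap (exact permutation p = 0.1). With quantile normalization, which unlike the other scalings can alter a ratio within a library, the log2 difference of this ratio went from 0.55 to 0.30 (exact permutation p = 0.3). Bhmt too shares sequence with other genes, for 61.5% of its 50-base stretches, of which 1389 occur in Gm5096 and 776 in the pseudogene Bhmt-ps1. Neither Gm5096 nor Bhmt-ps1 was among the named genes. With Bhmt2 itself Bhmt shares only 10 such stretches. For Mat2a the share was 13.9% and for Bhmt2 6.29%, and Mat1a, Gnmt, Cbs, Cth, Cdo1 and Csad shared none.

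Transsulfuration commits homocysteine to cysteine in a pair of steps. Cbs, cystathionine beta-synthase, condenses homocysteine with serine, and Cth, cystathionine gamma-lyase, splits the product to cysteine. Cbs went from 199, 222 and 236 RPKM in fasted to 153, 125 and 168 RPKM in refed libraries. The highest refed library stayed below the lowest fasted one. The log2 fold change was -0.56 ± 0.12 (SE, limma adjusted p = 0.0087), 1.47-fold lower. The other Cbs transcript in the table gave nearly the same values, from 198, 220 and 234 RPKM to 152, 125 and 167 RPKM.

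Cth fell further, from 335, 292 and 261 RPKM in fasted 1, 3 and 4 to 81.2, 76.9 and 86.1 RPKM in refed 5, 7 and 8. The refed libraries lay close together, and the lowest fasted one was well above them. The log2 fold change was -1.84 ± 0.11 (SE, limma adjusted p = 2.3e-05). The ratio of Cth to Cbs was 1.68, 1.32 and 1.11 in fasted liver and 0.531, 0.613 and 0.512 in refed liver. Cth was thus the more abundant of the pair in every fasted library and the less abundant in every refed one (2.48-fold lower by group means, exact permutation p = 0.1).

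Cysteine is oxidised to cysteine sulfinate by cysteine dioxygenase, the product of Cdo1, and cysteine sulfinate is decarboxylated toward taurine by the enzyme of Csad. Cdo1 stood at 982, 984 and 959 RPKM in fasted and at 561, 446 and 416 RPKM in refed libraries. The fasted libraries were almost level, and all refed ones were lower. The log2 fold change was -1.05 ± 0.12 (SE, limma adjusted p = 0.0005), 2.06-fold lower.

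Csad was the most variable of the 10 genes, at 84.4, 194 and 212 RPKM in fasted and 266, 155 and 218 RPKM in refed libraries. Fasted 1 was by far the lowest, and the other fasted libraries lay within the refed range. The fitted log2 difference was 0.45 ± 0.35 (SE), with a 95% interval from -0.35 to 1.25 (limma adjusted p = 0.32), and without fasted 1 it was 0.036 (limma adjusted p = 0.9). The ratio of Csad to Cdo1 was 0.0859, 0.197 and 0.221 in fasted and 0.475, 0.347 and 0.524 in refed liver, 2.67-fold higher with no overlap (exact permutation p = 0.1). Without fasted 1 the log2 difference of that ratio was 1.08 in place of 1.51.

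**Figure D4:**
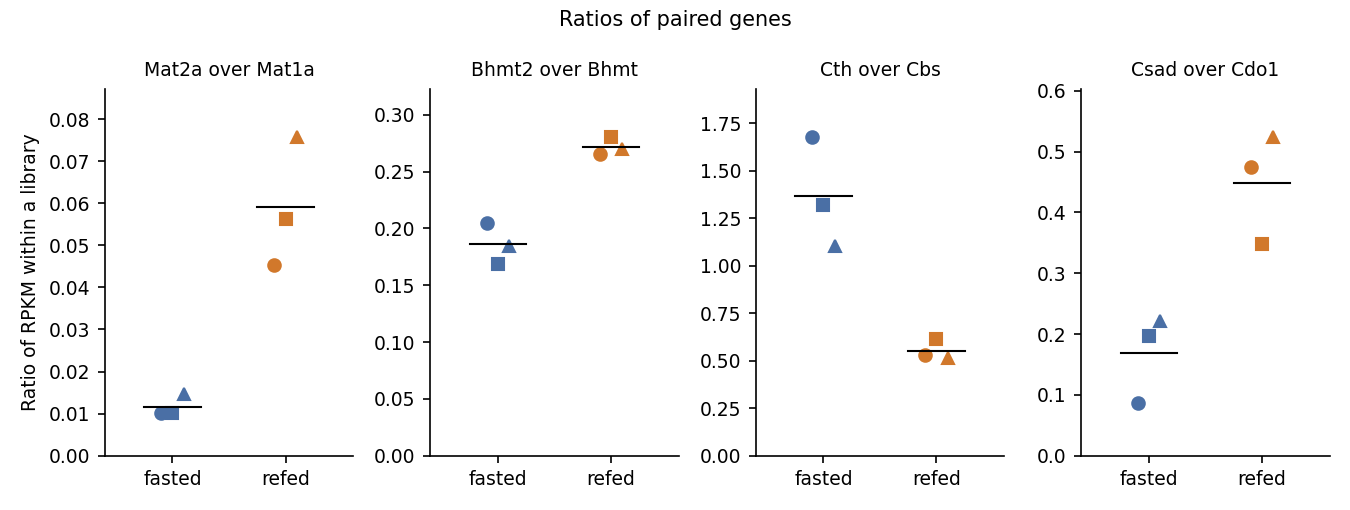
Ratio of RPKM within each library for Mat2a over Mat1a, Bhmt2 over Bhmt, Cth over Cbs and Csad over Cdo1, fasted in blue and refed in orange, with a bar at each group mean and all axes from 0. In each panel the groups do not overlap, and only Cth over Cbs is lower in refed liver, at a mean of 0.552 against 1.37.

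The order of the levels differed between the states. In fasted liver Mat1a and Gnmt led, followed in order by Cdo1, Bhmt and Cth, each with libraries apart from those of the next. Cbs, Csad, Ahcy and Bhmt2 came below, and each of these overlapped with its neighbour in the order. In refed liver Gnmt stood alone at the top, Bhmt, Cdo1 and Mat1a formed an overlapping group after it, and Csad, Cbs and Bhmt2 a second one. Cth was 5th in fasted and 8th in refed liver.

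Fewer cells of a type and less RNA per cell cannot be told apart in whole liver. Hepatocytes differ in their enzymes between the portal and the central side of the lobule, and many marker transcripts of both zones were lower in refed liver. Of 14 periportal markers 10 were called lower and 1 higher, against 15.8% and 26.4% of all genes. Their summed level went from between 6618 and 7434 RPKM in fasted to between 3135 and 3460 RPKM in refed libraries. Pck1, the gluconeogenic carboxykinase, went from 2084 to 58.6 RPKM, and without it the other 13 summed to between 4529 and 5206 RPKM in fasted and between 3119 and 3346 RPKM in refed libraries. Of 14 pericentral markers 7 were lower and 2 higher, against the same shares of all genes. Their sums lay between 6737 and 7728 RPKM in fasted and between 3790 and 4211 RPKM in refed libraries. In the sums that difference lay in Cyp2e1, an ethanol-oxidising cytochrome, at 5310 and 1903 RPKM. The sums of the other 13 overlapped, at 1789 to 2169 RPKM in fasted and 1969 to 2143 RPKM in refed libraries. Single genes among those 13 still moved, in both directions, and their changes offset each other in the sum. Oat fell from 569 to 127 RPKM and Cyp2c29 rose from 422 to 809 RPKM. The sums without Pck1 or Cyp2e1, and the examples Oat and Cyp2c29, were chosen after the data were seen. Both lists hold enzymes of amino acid and glucose metabolism, and some members that mark a zone did not pass, such as Cyp2f2 (limma adjusted p = 0.24), or were higher, such as Glul (limma adjusted p = 0.018, but 0.068 with median centring, 0.098 with TMM, 0.058 without refed 5 and 0.051 without refed 8). The part of these markers in the falls of the 5 genes was not tested.

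Promoter windows of 300 bases, 250 before to 50 after the annotated start, were available from RefSeq (GRCm38.p6) for 7 of the 10 genes in 8 windows, Csad having a pair. Shown here are the windows of the fallen genes Cbs and Ahcy and, as genes that did not pass, Gnmt and Mat2a. Capitals mark CCAAT or its reverse ATTGG, the letters bound by NF-Y, in Cbs also the E-box CACGTG and in Mat2a also the TATA box letters TATAAA.
Cbs, chr17:31637156-31637455, minus strand: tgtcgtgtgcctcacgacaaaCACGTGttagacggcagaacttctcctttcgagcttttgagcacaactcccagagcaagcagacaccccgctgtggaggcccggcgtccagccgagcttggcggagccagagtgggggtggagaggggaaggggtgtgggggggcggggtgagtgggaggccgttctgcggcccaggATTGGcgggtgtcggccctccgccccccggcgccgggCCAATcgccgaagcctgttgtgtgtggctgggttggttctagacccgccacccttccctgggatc
Ahcy, chr2:155074448-155074747, minus strand: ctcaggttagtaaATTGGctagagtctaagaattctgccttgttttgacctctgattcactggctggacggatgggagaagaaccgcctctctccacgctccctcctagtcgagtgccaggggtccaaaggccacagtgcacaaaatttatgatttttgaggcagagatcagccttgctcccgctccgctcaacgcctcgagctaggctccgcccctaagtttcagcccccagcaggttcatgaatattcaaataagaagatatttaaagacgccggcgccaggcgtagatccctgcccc
Gnmt, chr17:46729116-46729415, minus strand: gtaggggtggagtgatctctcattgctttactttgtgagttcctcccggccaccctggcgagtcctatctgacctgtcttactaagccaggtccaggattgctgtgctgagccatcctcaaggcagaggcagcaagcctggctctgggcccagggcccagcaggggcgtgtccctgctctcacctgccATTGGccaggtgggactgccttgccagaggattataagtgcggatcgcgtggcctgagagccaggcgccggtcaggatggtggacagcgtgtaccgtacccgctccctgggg
Mat2a, chr6:72439507-72439806, minus strand: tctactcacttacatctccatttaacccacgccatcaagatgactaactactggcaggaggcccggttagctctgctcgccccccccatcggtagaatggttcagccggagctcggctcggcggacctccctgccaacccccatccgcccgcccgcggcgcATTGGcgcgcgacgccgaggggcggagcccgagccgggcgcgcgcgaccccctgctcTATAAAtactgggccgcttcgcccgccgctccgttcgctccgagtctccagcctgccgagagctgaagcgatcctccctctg

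The CCAAT letters, on either strand, occurred in 6 of the 8 windows, against 37.4% of 32817 promoter windows of the table. In Cbs they began 52 and 15 bases before the start site, in Gnmt 62, in Mat2a 89 and in Ahcy 237 bases before it. Bhmt held them 56 bases before and again at base 34 from the start site, and 1 of the 2 Csad windows held them 75 bases before it. The E-box was found in the window of Cbs alone and in 7.15% of all windows, and TATAAA in that of Mat2a alone and in 13.6% of all. None of the 8 windows held TGACGTCA (the CRE), TGATGCAA (a C/EBP-ATF composite), TGTTTAC (forkhead) or TGACNNNGC (antioxidant response), on either strand, and these occurred in 1.79%, 0.9%, 3.65% and 12.4% of all windows. No window was available for Mat1a or Cth. That of Cdo1 could not be searched, because chromosome 18 was left out of the search and of the 32817 windows. Of the 5 fallen genes only Ahcy and Cbs were therefore searched. Within the 7 genes searched, CCAAT was in windows both of fallen genes and of genes that did not pass.

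The genes nearest in pattern to the most changed members were found by the root mean square difference of centred log2(RPKM + 1) values over the 6 libraries. For Mat1a the nearest of 10882 genes was Ppara, a nuclear receptor of fatty acid oxidation, at 0.12. Ppara was at 49.5, 57.0 and 57.5 RPKM in fasted and 15.5, 10.7 and 11.1 RPKM in refed libraries. It was followed by St3gal5, a sialyltransferase, at 0.15 and the microRNA gene Mir294 at 0.16. Mir294 was listed at 5.64 to 8.87 RPKM in fasted and 0.672 to 1.24 RPKM in refed libraries. For Cth the nearest were Flvcr2, D7Ertd143e and Slc4a4, a sodium bicarbonate cotransporter, at 0.10, 0.11 and 0.11. Flvcr2 was at 2.56 to 3.32 RPKM in fasted and 0.175 to 0.235 RPKM in refed libraries. D7Ertd143e was at 5.63 to 6.66 RPKM in fasted and 0.913 to 1.42 RPKM in refed libraries. Adding 1 RPKM shrinks falls to levels this low. In RPKM both fell by a larger factor than Cth, so their nearness to it holds on this scale only. The same limit applies to Mir294 beside Mat1a. For Ahcy they were Dcun1d4, Fitm2 and Dyrk2, each at 0.07. Among the 10 genes themselves, Cth was number 22 in nearness to Mat1a and Cdo1 number 61 in nearness to Ahcy.

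Around the 10 genes, the folate cycle carries the carbon that the methionine synthase of Mtr uses as the other route from homocysteine to methionine. Of 24 measured genes of the folate and methionine synthase list, 7 were higher and 6 lower, against 26.4% and 15.8% of all genes. Their median log2 fold change was 0.18. The split was 5 and 7 with median centring and with TMM, and 6 and 6 with quantile normalization. The higher ones included Mtr, Mtrr, Shmt1, Shmt2, Mthfd2 and Mthfsd. Mthfd2, a mitochondrial folate enzyme, went from 0.315 ± 0.108 to 2.35 ± 0.357 RPKM (n = 3, SD; log2 change 1.35, limma adjusted p = 0.00016). Mtr rose by 0.31 on the log2 scale from 1.21 ± 0.122 RPKM (limma adjusted p = 0.038), a level far below that of Bhmt. Mtr and Mtrr lost their calls in the 3 other scalings (limma adjusted p of 0.074 to 0.12) and without any 1 library but fasted 1. The mitochondrial folate carrier gene Slc25a32 fell by 0.67, and Mthfsd, of little known function, rose by 0.60.

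Betaine comes from choline, and genes of that route moved in both directions. Of 16 genes of choline, betaine and glycine supply, 6 were called, against 42.2% of all genes, 3 of them higher and 3 lower. The split was 2 and 3 with median centring or quantile normalization and 2 and 4 with TMM. Chdh, which oxidises choline, had 46.5 ± 3.48 RPKM in fasted against 43.9 ± 2.99 RPKM in refed liver (SD, n = 3; limma adjusted p = 0.51), and Dmgdh, which takes up the product of Bhmt, had a log2 fold change of -0.08 (limma adjusted p = 0.73). Choline kinase alpha, Chka, which sends choline toward phosphatidylcholine, rose from 10.9 ± 2.5 to 53.7 ± 10.4 RPKM (log2 fold change 2.21, limma adjusted p = 1e-04). Its relative Chkb fell from 44.7 ± 8.56 to 25.5 ± 2.36 RPKM (limma adjusted p = 0.0033). The choline transporter gene Slc44a1 rose by 0.80 and the betaine transporter gene Slc6a12 fell by 0.53, and Slc6a12 lost its call without fasted 3 (limma adjusted p = 0.05) and without refed 8 (0.052).

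S-adenosylmethionine is spent by methyltransferases. In the list of methyltransferases and S-adenosylhomocysteine removal 9 of 22 genes were higher and 2 lower, against 26.4% and 15.8% of all genes. The split was 8 and 3 with median centring and with TMM, and 9 and 3 with quantile normalization. The list also holds genes that are not methyltransferases, such as Adk, Mat2b, Ahcyl2 and Glyat. Of these, Ahcyl2 and Glyat are among the higher ones. Gamt, the last enzyme of creatine synthesis, rose from 88.5 ± 8.01 to 215 ± 44 RPKM (n = 3, SD; log2 change 1.26, limma adjusted p = 0.0006). Pemt, which makes phosphatidylcholine by methylation, rose by 0.36 (limma adjusted p = 0.012), and did not pass without refed 5 (0.054). Nnmt, nicotinamide N-methyltransferase, fell from 123 ± 52 to 33.3 ± 5.18 RPKM (-1.77, limma adjusted p = 0.002). Mettl16, an RNA methyltransferase known to govern Mat2a splicing, rose by 0.60 (limma adjusted p = 0.0059), and Ahcyl2, a relative of Ahcy, by 0.88. Adk, which removes the adenosine released by the Ahcy reaction, was at 272 ± 14.1 and 284 ± 7.96 RPKM (limma adjusted p = 0.6).

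Polyamine synthesis takes its propylamine groups from decarboxylated S-adenosylmethionine and returns the sulfur by methionine salvage. Of 18 measured genes 7 were higher and 2 lower in refed liver, against 26.4% and 15.8% of all genes. With median centring and with quantile normalization 4 were higher and 4 lower, and with TMM 3 and 4, as the calls of Amd1, Amd2 and Apip were lost in all 3. The higher ones included Srm, spermidine synthase, from 12.7 ± 0.888 to 29.4 ± 3.77 RPKM (SD, n = 3; limma adjusted p = 0.0002), Paox, a polyamine oxidase, from 1.14 ± 0.0947 to 4.39 ± 1.08 RPKM, and Mtap, which starts salvage and rose by 0.58. Amd1 and Amd2 are near-identical copies of S-adenosylmethionine decarboxylase, were listed at almost equal values and are uncertain as single genes. The lower members, Tat and Got1, are aminotransferases that also serve tyrosine and aspartate breakdown, and they fell by 2.08 and 1.72. Without fasted 3, or without refed 5, 5 genes of this list were called in place of 9.

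Beyond cysteine, 5 of 22 genes of sulfide, taurine and sulfate handling were higher and 5 lower, against 26.4% and 15.8% of all genes. The split was 4 and 6 with median centring, 5 and 7 with quantile normalization and 4 and 7 with TMM. The synthases of activated sulfate went in opposite directions, Papss1 from 2.83 ± 0.306 to 11.8 ± 0.676 RPKM (n = 3, SD; log2 change 1.74, limma adjusted p = 1.6e-05) and Papss2 from 52.9 ± 8.11 to 21 ± 1.24 RPKM (-1.28, limma adjusted p = 0.00017). Suox, sulfite oxidase, fell by 0.40 and Ethe1, a mitochondrial persulfide dioxygenase, rose by 0.88. Selenbp2 rose by 1.13, and it is a close copy of Selenbp1, so that each is uncertain as a single gene. Baat, which joins taurine to bile acids, was at 107 ± 9.84 and 103 ± 12.4 RPKM (limma adjusted p = 0.75).

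Genes of glutathione synthesis, the other use of cysteine, did not pass. Gclc, the catalytic subunit of the rate-limiting ligase, had 82.5 ± 14.4 RPKM in fasted against 81.7 ± 11.8 RPKM in refed liver (SD, n = 3; limma adjusted p = 0.97), Gclm had a limma adjusted p of 0.24 and Gss of 0.49, though Gss passed at 0.33 on the log2 scale without refed 7 (limma adjusted p = 0.031). In the whole list of glutathione turnover and amino acid uptake 6 of 19 measured genes were higher and 5 lower, against 26.4% and 15.8% of all genes. The lower ones were Oplah, 5-oxoprolinase, from 74.8 ± 3.66 to 24.5 ± 4.9 RPKM (limma adjusted p = 0.00014), Slc38a4, an amino acid transporter, from 350 ± 16.6 to 115 ± 6.95 RPKM (limma adjusted p = 1.7e-05), and Slc38a2, Slc38a3 and Anpep, of which Slc38a3 (limma adjusted p = 0.044) lost its call with quantile normalization, with summed transcripts and without fasted 1, fasted 3, refed 5 or refed 8 (limma adjusted p of 0.051 to 0.26). The higher ones included Slc1a4, a neutral amino acid transporter, from 0.624 ± 0.239 to 2.83 ± 0.967 RPKM, and Ggct, which cleaves gamma-glutamyl amino acids, from 2.93 ± 0.624 to 7.45 ± 2.54 RPKM.

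**Figure D5:**
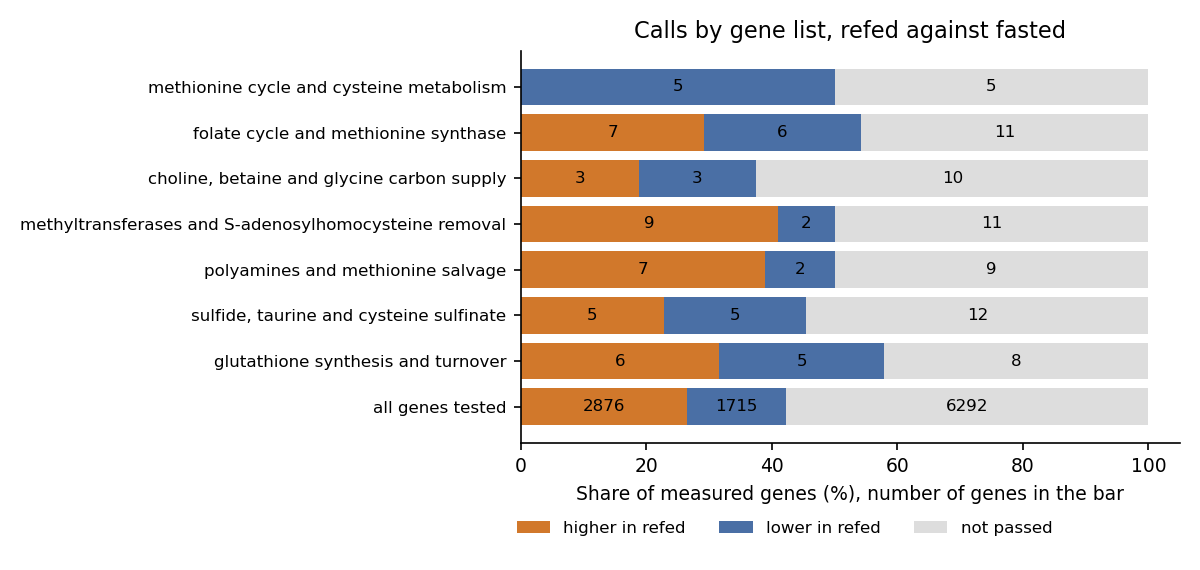
Share of measured genes called higher (orange) or lower (blue) in refed liver or not passed (grey), by gene list, with the number of genes written in the bars and all 10883 genes tested at the bottom. The methionine cycle and cysteine list has 5 lower and no higher genes, while each list around it has both.

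On mm9 coordinates (the only build in the submitters' processing notes), the authors' deposited table places Mat1a (ENSMUSG00000037798) on the plus strand at chr14:41918670-41937701 and Cth (ENSMUSG00000028179) on the minus strand at chr3:157557212-157588041. It places Cbs at chr17:31749568-31774144, Ahcy at chr2:154885046-154900233 and Bhmt at chr13:94386846-94407916, all on the minus strand. These intervals cover whole genes with introns, while RPKM was given per transcript. Whether the deposited reads include those in introns is not known. By GENCODE M21, 5 of the 10 genes overlap with an annotated gene on the opposite strand, Mat2a, Gnmt, Bhmt, Ahcy and Csad. Cth overlaps over 2231 bases with Gm43314, annotated on its own strand. Of these partners only that of Csad, Zfp740, was in the RPKM table, at 4.82 to 7.52 RPKM.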

How the data were processed

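Messenger RNA of mouse liver was measured in 6 libraries, grouped by sample title into 3 fasted and 3 refed. The submitters' processing notes name FastQC, STAR 2.6.0c, DESeq2 and mm9 with no role for any of them, and whether counting used strand was not stated. The authors deposited RPKM values for 14659 transcripts, each reaching at least 1 RPKM in some library. The authors also deposited a table of 5434 called genes with raw read counts, log2 fold changes and false discovery rates (adjusted p-values), which the file headers ascribe to DESeq. These counts cover called genes alone, so no test of refed against fasted was run on them. They were used for depth, for the reads per RPKM and for the check between replicates. The full depth of the libraries is unknown, so intervals for counting error are left out.

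Transcripts were named through RefSeq accessions (14390 rows), descriptions (172) or symbols (23), and 74 rows without a name were left out. The highest transcript stood for a gene. Values were tested as log2(RPKM + 1) with limma 3.58.1 in R 4.3.3, with trended moderated variances, two-sided, after removing genes under a mean of 0.5 RPKM. Fold changes on this scale understate low genes. The procedure was tested on simulated data. Chi-square per degree of freedom between replicates was 59.7 to 241, so no library repeated another. Alternatives were pseudocount, filter, scaling (median centring, quantile, TMM from edgeR 4.0.16), summed transcripts, no variance trend and each library left out. Named genes were the 10 members, up to 4 per list with the largest called changes without overlap, and the 3 nearest in pattern to each of the 3 most changed members. Other list genes were named after their values were seen. Some genes the rule names are not reported here. The members and lists were chosen with earlier results of these data known.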

Additional observations from a re-analysis of the deposited data

How the results depend on the processing

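No paired analysis was possible because the groups share no replicate number. Mat1a, Ahcy, Cbs, Cth and Cdo1 kept their direction and passed in all 14 alternatives, with limma adjusted p of at most 0.031, reached by Cbs. Gnmt turned to 0.038 with quantile normalization. Bhmt, at -0.38 and not passed, passed at -0.38 with the filter of 2 RPKM, at -0.46 with median centring and at -0.49 with TMM. With single libraries left out Bhmt ranged from -0.48 to -0.29, Mat2a from 0.11 to 0.34, Csad from 0.036 to 0.70, and between 5 and 6 members were called lower and 0 to 1 higher. Genes called in the polyamine and salvage list then numbered 5 to 8, and calls over all genes 3436 to 4207. Around the members, 4 genes that did not pass turned sign, Adk to -0.028 with median centring and -0.053 with TMM, and with single libraries left out Baat (-0.13 to 0.043), Dmgdh (-0.20 to 0.058) and Gclc (-0.16 to 0.094). Slc6a12 fell short of the threshold without fasted 3 (-0.52) or refed 8 (-0.41). Precision is limited by 3 libraries per group, and for Ahcy and Bhmt by sequence shared with copies.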

Other observations

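In the authors' deposited table the reads of Ahcy numbered 22662, 27213 and 22109 in fasted and 10149, 10113 and 8827 in refed libraries. GENCODE M21 annotates an antisense gene, Gm45609, over 317 bases of the Ahcy interval. What makes the deposited reads and the RPKM of Ahcy differ in the size of its fall was not tested.

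Fasted 1, the library with the lowest Csad level, had the highest summed level of Kupffer cell markers, at 174 RPKM against 60.5 and 93.8 RPKM in the other fasted and 102 to 113 RPKM in the refed libraries. It also had the highest Cth level of the 6 libraries. Gatm, the enzyme before Gamt in creatine synthesis, had 1.38 ± 0.294 RPKM in fasted against 1.73 ± 0.292 RPKM in refed liver (SD, n = 3; limma adjusted p = 0.25), far below Gamt itself. These values were picked after they had been seen.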
